A study of Mus musculus with 109 samples.

Results

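Transcripts of 10 genes were followed across 109 whole mouse retinas: the JUN family members Junb and Jund, the FOS family members Fos, Fosb, Fosl1 and Fosl2, the BATF family members Batf and Batf3, the small MAF gene Maff, and the immediate early gene Egr1. They were taken by symbol from a table of 37315 genes, and every retina of every treatment, day and genotype was used. Jun itself was not among the 10 and is given only as a reference. The retinas came from 64 mice, of which 45 gave both eyes, and the eyes had been injected into the vitreous with PBS, TNF, IL1A or IL1A+TNF. Mice were 2 to 4 months old by the series' description. Wild-type (WT) mice were C57BL/6J, and the other genotype was deficient for Sarm1 (Sarm1-/-). In batch 1, collected 2 days after injection, there were 31 WT PBS retinas, 8 TNF, 9 IL1A and 10 IL1A+TNF retinas. PBS and TNF were also collected on day 14 (7 and 6 retinas) and on day 35 (6 and 9 retinas). Batch 2 was collected on day 2 only and held 5 WT PBS, 6 WT IL1A+TNF, 6 Sarm1-/- PBS and 6 Sarm1-/- IL1A+TNF retinas. Each retina is 1 library and 1 replicate, and a PBS retina was usually the fellow eye of a treated one.

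AP-1 is a family of dimeric transcription factors: a JUN protein pairs with a FOS, BATF or ATF partner through a leucine zipper, and the pair binds a short palindrome in DNA. Fos, Fosb, Junb and Egr1 belong to the immediate early genes, whose mRNA appears within minutes of a stimulus without new protein synthesis and is then quickly lost. Fosl1 and Fosl2 encode Fra-1 and Fra-2, FOS proteins without a strong activation domain. BATF proteins pair with JUN proteins and act mainly in immune cells, while MAFF is a small MAF protein that also lacks an activation domain. In the retina, JUN is known as a driver of the death of retinal ganglion cells (RGCs) after axonal injury. After IL1A+TNF, however, the paper found no protection of RGCs in mice lacking Jun in retinal neurons and macroglia.

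Total counts per retina ranged from 30014757 to 79064488, and batch 2 was the deeper one. Levels are given as CPM, counts relative to library size after TMM scaling, and a gene was called where the false discovery rate (FDR) over all genes tested in limma was under 0.05. The labelled tissue had its markers: 6 rod markers summed to 34360 to 53410 CPM in PBS retinas of day 2, batch 1, and to no less than 21110 CPM in any group. Sarm1 itself was at 25.98 to 52.9 CPM in the 12 Sarm1-/- retinas and at 83.9 to 124 CPM in the 11 WT retinas of batch 2, with no overlap. In bulk tissue, fewer cells of a type and less RNA per cell cannot be told apart. Among the Sarm1-/- IL1A+TNF retinas, replicates 4 and 5, from 2 female mice, stood apart from the other 4. Their RGC markers summed to 85.0 and 70.5 CPM against 237 to 503 CPM in the other 4, their amacrine markers to 175 and 228 CPM against 687 to 859 CPM, and their neutrophil markers to 313 and 293 CPM against 46.0 to 131 CPM. Mitochondrial genes took 2.11% and 2.10% of their counts against 2.97% to 3.81%. The tests of Sarm1-/- retinas are therefore given with and without these 2 mice.

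On GRCm38, 9 of the genes lie on chromosome 8 (Junb at 84974484 to 84978718 and Jund at 70698949 to 70700616), chromosome 12 (Fos and Batf), chromosome 7 (Fosb), chromosome 19 (Fosl1), chromosome 5 (Fosl2), chromosome 1 (Batf3) and chromosome 15 (Maff), and Egr1 is placed where its values are given. Of the exonic bases of Fosl1, 57.2% are shared with Ccdc85b, a gene on the opposite strand, so that without a stated strand setting some of their reads cannot be told apart. Ccdc85b was at 10.4 to 19.8 CPM throughout. Jund shares 52.6% of its exonic bases with an antisense gene that had no count in any retina, and Junb shares 7.52% with Prdx2.

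Of the 10 genes, 8 had at least 1 RefSeq promoter window on GRCm38.p6. The windows shown are the 250 bases before the start site of 3 members that were called in IL1A+TNF against PBS in both batches of WT retinas, and are read 5′ to 3′ on the gene's strand. Fosb is from chr7:19310046-19310295 (minus strand), Batf from chr12:85686470-85686719 (plus strand) and Jund from chr8:70697489-70697738 (plus strand). The RefSeq start of Jund lies upstream of the gene start given above, which comes from another annotation. Its window ends at 70697738 and the counted gene starts at 70698949, so the bases directly before the counted gene were not searched. The capitals mark the only match found, to the kappaB motif, at position -188 from the start of Fosb on the opposite strand. The search covered both strands for an AP-1 site (TGANTCA), a cyclic AMP response element (TGACGTCA), a GAS element (TTCNNNGAA), an EGR site (GCGTGGGCG), a TATA box (TATAAA), the CArG box and the kappaB motif.
Fosb: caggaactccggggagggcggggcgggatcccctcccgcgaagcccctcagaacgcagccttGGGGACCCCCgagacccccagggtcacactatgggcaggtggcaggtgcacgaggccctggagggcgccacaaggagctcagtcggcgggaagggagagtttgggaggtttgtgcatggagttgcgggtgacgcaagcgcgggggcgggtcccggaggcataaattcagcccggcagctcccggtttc
Batf: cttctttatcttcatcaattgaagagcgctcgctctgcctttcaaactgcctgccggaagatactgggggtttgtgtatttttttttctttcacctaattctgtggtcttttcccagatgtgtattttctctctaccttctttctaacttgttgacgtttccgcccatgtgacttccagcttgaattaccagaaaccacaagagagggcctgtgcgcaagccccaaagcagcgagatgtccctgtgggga
Jund: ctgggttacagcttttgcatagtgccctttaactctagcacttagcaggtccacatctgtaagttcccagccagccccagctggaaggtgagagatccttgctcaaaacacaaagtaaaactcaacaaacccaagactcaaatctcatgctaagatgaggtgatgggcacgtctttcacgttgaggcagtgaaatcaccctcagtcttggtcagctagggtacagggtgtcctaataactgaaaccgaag
The kappaB motif was found in 3.90% of all 32851 windows of this length, the AP-1 site in 6.75%, the cyclic AMP response element in 1.55%, the GAS element in 7.02%, the EGR site in 0.536%, the TATA box in 12.4% and the CArG box in 1.47%. Among the other members, kappaB matches lay at position -214 from the start of Fos and at the overlapping positions -182 and -181 from the start of Fosl2. A GAS element lay at position -239 from the start of Batf3, and a kappaB match at position -70 from the third of the 3 Maff starts. A TATA box lay at position -33 from the start of Fos, and a cyclic AMP response element and an EGR site at positions -29 and -88 from the second Maff start. No AP-1 site was found in these windows.

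In PBS retinas of day 2, batch 1, Jund was the most abundant member per length, and Batf3 the least. Per kilobase of exon, Jund was at 28 ± 3.83 CPM (SD, n = 31), Junb at 15.3 ± 6.19, Fos at 11.02 ± 3.56 and Egr1 at 8.75 ± 4.84. Fosl1 followed at 2.91 ± 0.475 CPM per kilobase, Fosl2 at 1.52 ± 0.450, Fosb at 1.43 ± 0.430 and Maff at 0.704 ± 0.255. Batf (0.0993 ± 0.0862) and Batf3 (0.0524 ± 0.0331) were near the limit of counting. Neighbours in this order whose means differed by less than their summed SDs were Junb and Fos, Fos and Egr1, Fosl2 and Fosb, and Batf and Batf3. The members also differed in how much they varied between PBS retinas: the coefficient of variation was 13.7% for Jund and 16.3% for Fosl1, but 40.4% for Junb and 55.3% for Egr1. For Fosl1, the bases shared with Ccdc85b leave both its place in this order and its variation uncertain.

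The comparison of IL1A+TNF with PBS on day 2 asked what both cytokines together changed in WT retinas. Of the 9 members that passed the filter on low counts, 7 rose and 0 fell: Batf, Junb, Fosl2, Fosb, Maff, Egr1 and Jund. In the fit of PBS retinas alone Batf did not pass this filter, so that it was tested here through cytokine-treated retinas. It is thus among the 9 because it was high there, and its calls are no separate support for a rise. Among all 19548 genes tested, 24.9% rose and 25.5% fell. The median log2 fold change was 0.58 over the 9 members and -0.02 over all genes. Fos and Fosl1 were not called. Their intervals bounded the change of Fos to between -0.15 and 0.39 on the log2 scale and that of Fosl1 to between -0.26 and 0.08. Markers of the retina's own cells moved in the same comparison. The median sum went from 44590 to 24560 CPM for rods (5 of 6 markers lower), from 875.6 to 248.7 CPM for cones (5 of 5 lower) and from 2436 to 1460 CPM for Müller glia (2 of 4 lower, 1 higher), and from 147 to 325 CPM for astrocytes (2 of 4 higher, 2 lower) and 60.9 to 121 CPM for microglia and macrophages (4 of 6 higher, 1 lower). Their part in the levels of the members was not tested.

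**Figure D1:**
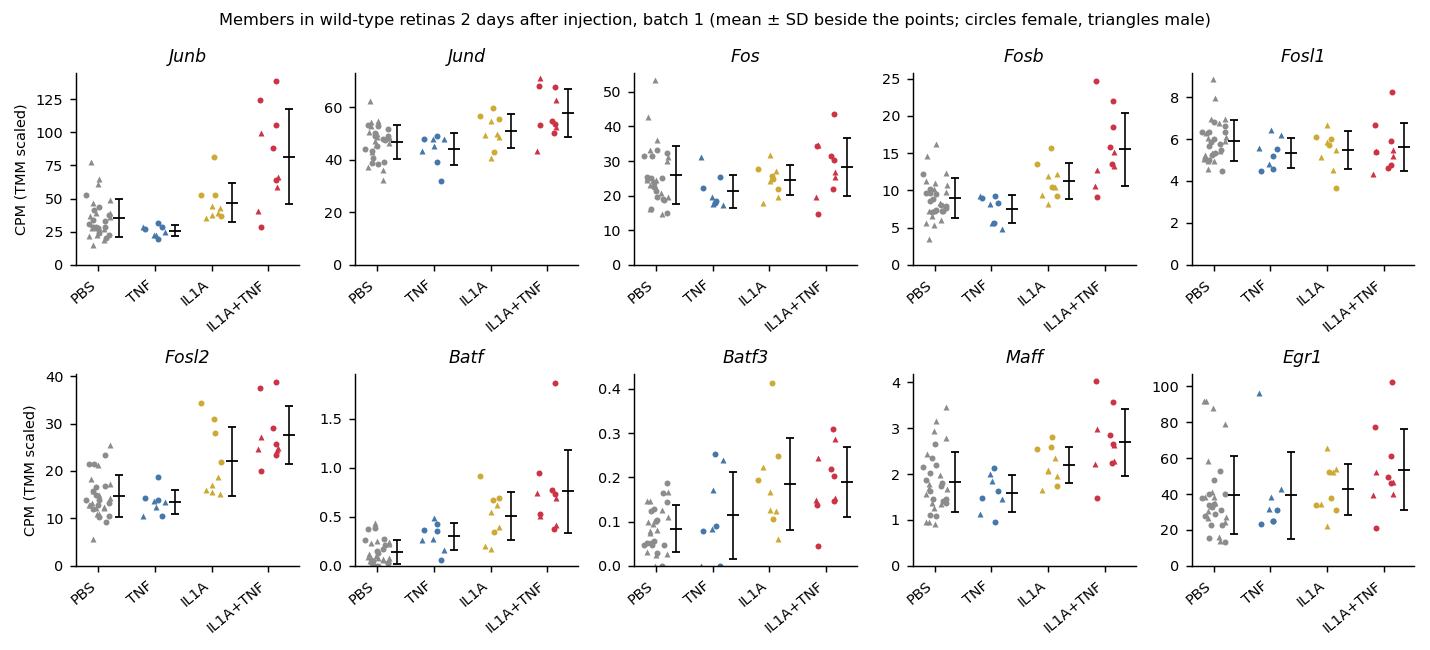
Level of each member in CPM (TMM scaled, linear axes from 0) in single WT retinas of day 2, batch 1; circles are female and triangles male retinas, and bars give the mean ± SD. The IL1A+TNF retinas sit high for Junb, Fosb, Fosl2 and Batf, with 8 of 10 Batf values above every PBS retina, while Fos and Fosl1 overlap throughout.

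Batf, a partner of JUN proteins in lymphoid and myeloid cells, changed the most. Its level was 0 to 0.438 CPM in the 31 PBS retinas (median 0.0944), and 0.377 to 1.86 CPM in the 10 IL1A+TNF retinas (median 0.716). In the 3 PBS retinas with no count, a count of 0 allows up to 0.0700 to 0.0844 CPM, a limit for counting error only. All 10 IL1A+TNF retinas were above the PBS mean and 8 were above the highest PBS retina. The log2 fold change was 2.704 ± 0.316 (SE; FDR = 1.38e-10), or 6.52-fold. All 8 mice with 1 eye of each treatment had the higher value in the IL1A+TNF eye. Neutrophil markers moved with Batf: their sum was 0.697 to 81.5 CPM in PBS retinas (median 7.99) and 48.1 to 451 CPM in IL1A+TNF retinas (median 69.0), with 4 of 4 tested markers higher. Monocyte markers went from a median of 4.73 to 44.2 CPM, with 5 of 5 higher. Their part in the rise of Batf was not tested.

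Junb, which competes with JUN for FOS partners, was at 14.9 to 77.4 CPM in PBS retinas (median 30.8) and at 28.2 to 138 CPM with IL1A+TNF (median 77.3). The groups overlapped, with 9 of 10 treated retinas above the PBS mean and 5 above every PBS retina. The log2 fold change was 1.14 ± 0.179 (FDR = 2.50e-07). Jund, the JUN gene with the steadiest level, was at 32.4 to 62.2 CPM in PBS retinas (median 47.8) and at 43.4 to 70.9 CPM with IL1A+TNF (median 54.0). It rose by only 0.30 ± 0.0721 on the log2 scale (FDR = 4.03e-04), with 9 of 10 retinas above the PBS mean. Prdx2, which overlaps Junb, rose by 0.19 on the log2 scale (FDR = 0.00106).

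Of the FOS family, Fosl2 and Fosb rose. Fosl2 was at 5.72 to 25.4 CPM in PBS retinas (median 13.9) and at 20.1 to 38.8 CPM with IL1A+TNF (median 25.3), a log2 fold change of 0.91 ± 0.121 (FDR = 4.47e-09). Every IL1A+TNF retina was above the PBS mean, and 5 of 10 were above every PBS retina. Fosb was at 3.51 to 16.3 CPM with PBS (median 8.51) and at 9.05 to 24.7 CPM with IL1A+TNF (median 14.4), a log2 fold change of 0.77 ± 0.131 (FDR = 1.32e-06). Again all 10 treated retinas were above the PBS mean, but only 3 exceeded every PBS retina. Fos, the first FOS gene to respond to most stimuli, was at 14.8 to 53.5 CPM with PBS (median 24.5) and at 14.7 to 43.7 CPM with IL1A+TNF (median 28.6), and its log2 fold change of 0.12 ± 0.137 was not called (FDR = 0.490). Fosl1 was at 4.48 to 8.88 CPM with PBS (median 5.86) and at 4.33 to 8.25 CPM with IL1A+TNF (median 5.40), a log2 fold change of -0.09 ± 0.0840 (FDR = 0.397).

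Maff was at 0.901 to 3.46 CPM with PBS (median 1.69) and at 1.47 to 4.02 CPM with IL1A+TNF (median 2.64), and rose by 0.58 ± 0.146 on the log2 scale (FDR = 7.09e-04). Egr1, a zinc finger factor on chromosome 18 (34859823 to 34864984), was at 13.1 to 92.0 CPM with PBS (median 33.6) and at 20.9 to 102 CPM with IL1A+TNF (median 48.0). Its log2 fold change of 0.54 ± 0.223 passed the threshold (FDR = 0.0369), 9 of 10 treated retinas were above the PBS mean and 1 exceeded every PBS retina. The call was lost without the mouse of IL1A+TNF replicate 1, 2, 5 or 10 or of TNF replicate 4, with log2 fold changes from 0.42 to 0.53. Batf3 was left out by the filter, with 0 to 0.188 CPM in PBS retinas (at most 7 counts) and 0.0459 to 0.310 CPM with IL1A+TNF. With no filter its log2 fold change was 1.22 ± 0.366 (FDR = 0.00636). Where only eyes of the same mouse were compared, with the mouse as a fixed block, 4 members were called (Batf, Junb, Fosl2 and Fosb). Maff, Egr1 and Jund lost their calls there, with FDRs of 0.288, 0.0796 and 0.0680.

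IL1A alone raised 2 of the 9 members, Batf and Fosl2, against 12% of all genes. The limit of the filter given for Batf applies here too. Batf was at 0.176 to 0.919 CPM in the 9 IL1A retinas (median 0.545) and rose by 2.17 ± 0.347 on the log2 scale (FDR = 1.81e-06), with 5 of 9 retinas above every PBS retina. Immune markers moved here too: the median sum in IL1A retinas was 64.8 CPM for neutrophils (4 of 4 tested markers higher), 46.6 CPM for monocytes (4 of 5) and 118 CPM for microglia and macrophages (5 of 6), and their part in the level of Batf was not tested. Fosl2 was at 15.3 to 34.3 CPM (median 18.8) and rose by 0.61 ± 0.132 (FDR = 3.22e-04). Junb (log2 fold change 0.46, FDR = 0.0788) and Fosb (0.37, FDR = 0.0658) did not pass the threshold. Both were called, for a count of 4, without the mouse of IL1A+TNF replicate 3 or 9 or of IL1A replicate 5, and Fosb alone without that of IL1A replicate 6. With no filter on low counts Batf3 also passed, with a log2 fold change of 1.196 ± 0.388 (FDR = 0.0295).

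TNF alone changed none of the 9 members, against 0.655% of all genes in either direction. The count was 0 in limma, 0 in edgeR and 0 in DESeq2, and 1 member, Batf, had an unadjusted p under 0.05. Batf was at 0.0641 to 0.492 CPM in the 8 TNF retinas (median 0.316), with 7 above the PBS mean, a log2 fold change of 1.43 ± 0.404 (FDR = 0.0881). It passed the threshold without the mouse of TNF replicate 6 (log2 fold change 1.73, FDR = 0.00391) or of IL1A+TNF replicate 2 (1.49, FDR = 0.0487). Monocyte markers had a median sum of 31.8 CPM in TNF retinas against 4.73 CPM in PBS retinas. That of microglia and macrophages was 98.6 against 60.9 CPM, and that of neutrophils 7.32 against 7.99 CPM. The part of these cells in the level of Batf was not tested. Junb was at 19.8 to 32.0 CPM, all 8 values below the PBS mean, with a log2 fold change of -0.36 (FDR = 0.764). Against the PBS eye of the same mouse, 4 of 8 TNF eyes were above and 4 below, with a median ratio of 1.05.

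IL1A+TNF was also compared with IL1A directly. Junb was the 1 member of 9 called, higher by 0.68 ± 0.229 on the log2 scale (FDR = 0.0442), where 5.39% of all genes were higher. The effect of TNF differed with and without IL1A for Junb only (difference 1.04 ± 0.319 on the log2 scale, FDR = 0.0499), where 1.78% of all genes had a higher effect. Both counts went to 0 without the mouse of IL1A+TNF replicate 1, 2, 3, 5, 7 or 10 or of IL1A replicate 2, 4, 5, 6, 7 or 9. The first also went to 0 without that of IL1A replicate 3. The second also went to 0 without that of IL1A replicate 1, of IL1A+TNF replicate 6 or 8 or of TNF replicate 1, 2, 3, 5, 7 or 8, and the first to 2 without that of IL1A+TNF replicate 9. The difference in the TNF effect was not called without the mouse block either (FDR = 0.0502), nor with the mouse as a fixed block (FDR = 0.531). Jun, the reference, was higher in IL1A+TNF than in IL1A by 0.48 (FDR = 0.00433) and in IL1A+TNF than in PBS by 0.68 (FDR = 4.66e-09).

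**Figure D2:**
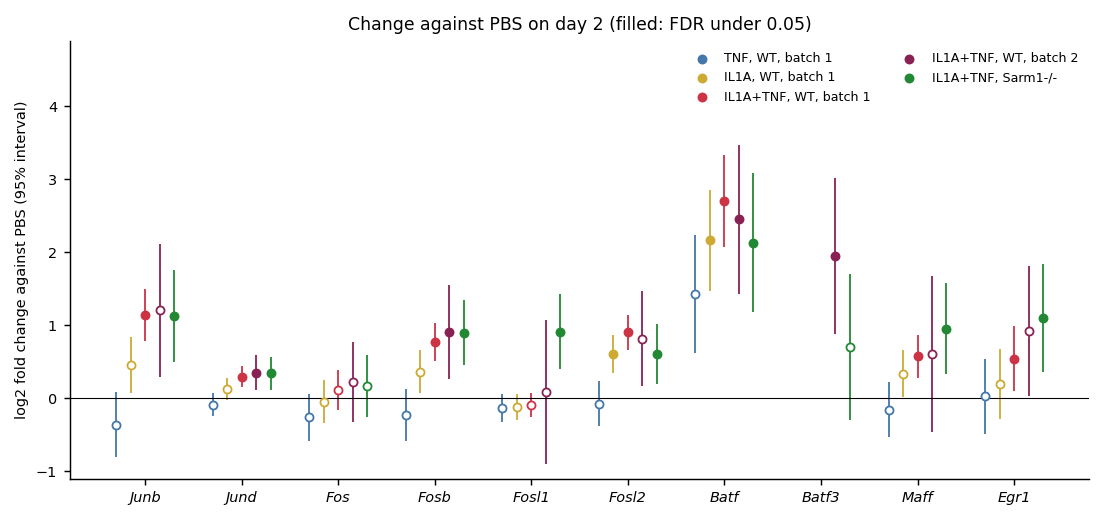
Log2 fold change of each member against PBS on day 2 with its 95% interval, for TNF, IL1A and IL1A+TNF in WT retinas of batch 1 and for IL1A+TNF in WT and Sarm1-/- retinas of batch 2; filled points have an FDR under 0.05 in limma. Batf has the highest point in each of the 5 comparisons, and Fos lies between -0.26 and 0.23 in all of them. Batf3 was tested in batch 2 only, and the Sarm1-/- points rest in large part on 2 mice. The Sarm1-/- points come from a fit over both batches, and the WT points of batch 2 from batch 2 alone.

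Batch 2 repeated IL1A+TNF against PBS in WT retinas with fewer and deeper libraries. The fit held all 23 retinas of batch 2. Its estimate of the spread therefore also drew on the Sarm1-/- retinas, those that stood apart included. Here 4 of 10 members rose (Batf, Batf3, Jund and Fosb), against 13.3% of all genes, and 0 fell. Batf3, left out by the filter in batch 1, passed it here only through IL1A+TNF retinas. It is thus among the 10 because it was high there, and its call is no separate support for a rise. Batf was at 0.0235, 0.0663, 0.155, 0.195 and 0.219 CPM in the 5 PBS retinas and at 0.402, 0.629, 0.699, 0.730, 0.892 and 0.937 CPM in the 6 IL1A+TNF retinas. The groups did not overlap, which also held for Batf3, Jund and Fosl2. The share of all genes that separated in this way was not counted for any treatment or day. The log2 fold change of Batf was 2.45 ± 0.490 (FDR = 0.00137). Batf3, known from dendritic cells, was at 0 to 0.106 CPM with PBS (6 counts or fewer) and at 0.141 to 0.326 CPM with IL1A+TNF (9 to 22 counts), also without overlap. Its log2 fold change was 1.95 ± 0.512 (FDR = 0.0102). Immune markers moved in the same retinas. Their median sum went from 3.65 to 107 CPM for neutrophils (3 of 4 tested markers higher), from 4.99 to 67.0 CPM for monocytes (3 of 5) and from 63.2 to 157.0 CPM for microglia and macrophages (4 of 6). That of dendritic cells was 13.2 CPM with PBS and 13.4 CPM with IL1A+TNF (1 of 5 higher). It was also 14.4 and 14.2 CPM in PBS retinas of days 14 and 35, where monocyte markers were at 0.529 and 0.292 CPM. Being this flat, the sum cannot show whether dendritic cells changed. The part of all these cells in the levels of Batf and Batf3 was not tested.

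The other members had positive log2 fold changes too. Junb had a median of 33.1 CPM (21.04 to 51.8) with PBS and of 79.7 CPM (41.5 to 111) with IL1A+TNF, a log2 fold change of 1.21 ± 0.438 that missed the threshold (FDR = 0.0552). Fosl2 was at 15.5, 16.04, 16.2, 16.6 and 21.4 CPM with PBS and at 25.9, 26.9, 28.9, 29.2, 37.2 and 40.2 CPM with IL1A+TNF. These groups did not overlap, although the test did not call the gene (log2 fold change 0.82 ± 0.310, FDR = 0.0655). The SE came from all 23 retinas of batch 2, among them the 2 Sarm1-/- retinas with Fosl2 at 59.4 and 77.7 CPM. The part of these 2 retinas in the missed call was not tested. Fosb was called at 0.91 ± 0.309 (FDR = 0.0407), and Jund at 0.35 ± 0.113 (FDR = 0.0306). The count went from 4 to 2 with the mouse as a fixed block. With any 1 of the 6 WT mice left out it was 2 to 3. It was 2 without the mouse of WT PBS replicate 2, 3 or 5 or of WT IL1A+TNF replicate 1, which gave no PBS retina. With no replicate block Junb also passed (FDR = 0.0473). DESeq2 called 7 and edgeR 6. A test of the difference between batches called none of the 10 members (0 in limma, where 0% of all genes were called, 0 in edgeR and 0 in DESeq2, and 0 with an unadjusted p under 0.05). The differences ranged from -0.23 for Batf to 0.72 for Batf3 on the log2 scale, with SEs of 0.612 and 0.601. Between male and female mice of batch 1 the effect was not called as different for any member either: 0 of 9 members and 0% of all genes were called, with 0 in edgeR and in DESeq2 and 0 with an unadjusted p under 0.05.

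In Sarm1-/- retinas, 8 of 10 members rose with IL1A+TNF, against 21.3% of all genes, but none was called without the 2 mice whose treated retinas stood apart. This fit held 81 day 2 retinas of both batches, while the WT count of 4 of 10 came from the 23 retinas of batch 2 alone. The 2 counts therefore cannot be set side by side. The Sarm1-/- count in batch 2 alone was lower and is given in the last section. With all 6 mice the called members were Batf (log2 fold change 2.13), Junb (1.14), Egr1 (1.10), Maff (0.96), Fosl1 (0.92), Fosb (0.90), Fosl2 (0.60) and Jund (0.34), with FDRs from 1.86e-04 for Batf to 0.0131 for Fosl2. Without the 2 mice the count fell to 0 of 10, while 2.47% of all genes were still called higher. Batf was then at 1.88 ± 0.604 (FDR = 0.0557), Egr1 at 0.68 (FDR = 0.377), Fosb at 0.64 (FDR = 0.157), Junb at 0.59 (FDR = 0.367) and Jund at 0.21 (FDR = 0.384). Fosl1 (0.02), Fosl2 (0.11) and Maff (0.12) were close to 0. The count was 3 without the mouse of replicate 4 alone and 4 without that of replicate 5 alone.

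The values of single retinas show this. Fosl1, which was flat in WT retinas, was at 34.1 and 35.1 CPM in replicates 4 and 5 and at 4.52, 5.87, 7.26 and 8.28 CPM in the other 4 Sarm1-/- IL1A+TNF retinas, while the 6 Sarm1-/- PBS retinas were at 4.67 to 8.02 CPM. Maff was at 14.0 and 13.7 CPM in the same 2 retinas against 1.70 to 4.09 CPM, and Fosl2 at 59.4 and 77.7 CPM against 22.9 to 26.97 CPM. Their PBS fellow eyes did not stand apart in this way: Fosl1 was at 4.67 and 6.31 CPM, Maff at 2.05 and 2.84 CPM and Fosl2 at 23.5 and 23.8 CPM there. Ccdc85b, which shares bases with Fosl1, was at 13.1 to 15.8 CPM in all 6 Sarm1-/- IL1A+TNF retinas.

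Batf differed from these 3 genes. Its 6 IL1A+TNF values (0.349, 0.400, 0.618, 0.690, 0.927 and 1.20 CPM) were all above its 6 PBS values (0.0189 to 0.290 CPM), and the IL1A+TNF eye was higher in 6 of 6 mice. Egr1 and Junb also differed among the treated retinas, with all 3 female retinas above all 3 male ones and replicates 4 and 5 the highest. Egr1 was at 138, 156 and 181 CPM in the female and at 32.7, 34.3 and 56.4 CPM in the male retinas, and Junb at 110, 162 and 185 CPM against 45.3, 48.3 and 52.5 CPM. This split was noticed after the values were seen. It held for 8 of 10 members, Fosl1, Maff and Batf included, and for 22.1% of all genes, against 0 of 10 members and 6.78% of all genes in the WT IL1A+TNF retinas of batch 2. With 3 retinas against 3, an exact permutation test cannot go below p = 0.10. Replicates 4 and 5 are 2 of the 3 female retinas, so that sex and their other differences cannot be told apart.

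**Figure D3:**
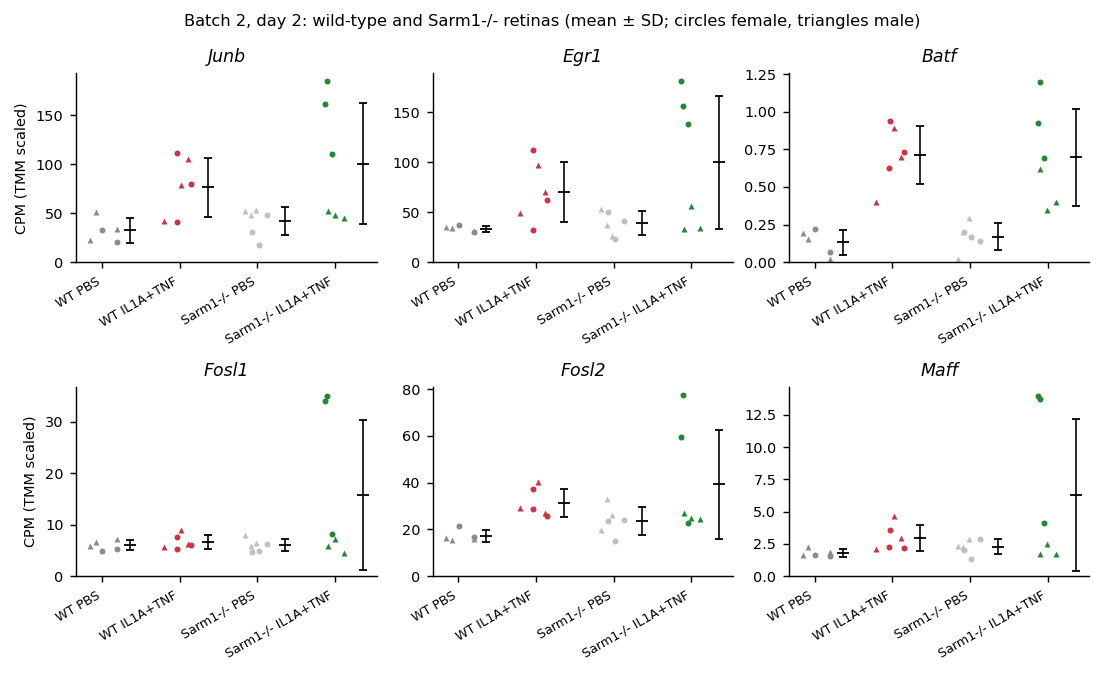
Level of 6 members in CPM (TMM scaled, linear axes from 0) in single retinas of batch 2, day 2; circles are female and triangles male retinas, and bars give the mean ± SD. For Fosl1, Fosl2 and Maff, 2 female Sarm1-/- IL1A+TNF retinas lie far above the other 4; for Junb and Egr1, all 3 female ones lie above the 3 male ones.

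The genotypes were also compared directly, in the same fit over day 2 of both batches. In PBS retinas 0 of 10 members were called (0.0397% of all genes; 0 in edgeR and 0 in DESeq2), and 1, Fosl2, had an unadjusted p under 0.05. Without the 2 mice the count was again 0, and Fosl2 was at 0.47 (FDR = 0.825). In IL1A+TNF retinas Fosl1 was the 1 member called, higher in Sarm1-/- by 0.86 ± 0.230 on the log2 scale (FDR = 0.00819), where 4.04% of all genes were higher. The effect of IL1A+TNF also differed between genotypes for Fosl1 alone (difference 0.94 ± 0.307, FDR = 0.0393), where 1.51% of all genes had a higher effect. Both calls ended without the 2 mice, where the difference was 0.03 ± 0.178 (FDR = 0.963), and also without either of them and in batch 2 alone.

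TNF on day 14 and day 35 changed none of the 8 members that passed the filter, and 0% of all genes were called on either day. The count was 0 in limma, edgeR and DESeq2 on both days, and 0 and 1 members had an unadjusted p under 0.05. The log2 fold changes ranged from -0.15 (Jund) to 0.23 (Egr1) on day 14 and from -0.20 (Fosl2) to 0.09 (Egr1) on day 35.

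The PBS retinas themselves differed between days. Junb, Fosb and Fosl2 were lower on day 14 than on day 2 (3 of 8 members, where 10.5% of all genes were lower and 8.68% higher), and Junb, Fosb and Jund were lower on day 35 (3 of 8, where 17.4% were lower). None rose. The 7 PBS retinas of day 14 came from 6 mice, 1 of which gave both eyes, and the fit had no mouse block. The count was again 3 with either eye of that mouse left out. Junb was at 10.8, 11.7, 11.8, 12.1, 12.97, 13.7 and 15.2 CPM on day 14, with 6 of 7 below every PBS retina of day 2, and at 7.56, 8.89, 11.1, 11.1, 11.2 and 11.5 CPM on day 35, below all of them. The log2 fold changes were -1.40 ± 0.248 (FDR = 6.60e-05) and -1.71 ± 0.281 (FDR = 6.57e-06). Fosb was at 3.12 to 5.39 CPM on day 14 and at 2.996 to 5.18 CPM on day 35, with log2 fold changes of -1.11 (FDR = 2.00e-04) and -1.17 (FDR = 9.31e-05) against day 2. Fosl2 fell by 0.73 on the log2 scale on day 14 (FDR = 0.00741), with 6.11 to 11.5 CPM, and was at 9.36 to 18.2 CPM on day 35, where the test did not call it (log2 fold change -0.13, FDR = 0.633).

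The test called neither Fos nor Egr1. Fos was at 15.1 to 28.2 CPM on day 14 and 20.7 to 30.2 CPM on day 35, within its range on day 2, and Egr1 at 17.5 to 61.5 and 20.95 to 47.3 CPM. Batf had no count in 5 of 7 PBS retinas of day 14 and in 3 of 6 of day 35, against 3 of 31 on day 2, and was too low to be tested there. Neutrophil markers were also lower, with a median sum of 0.112 CPM in PBS retinas of day 14 against 7.99 CPM on day 2, and microglial markers had a median of 32.5 against 60.9 CPM (6 of 6 lower). Their part in the difference was not tested. The 3 days were different mice, so that the day and anything else that differed between these collections cannot be told apart.

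**Figure D4:**
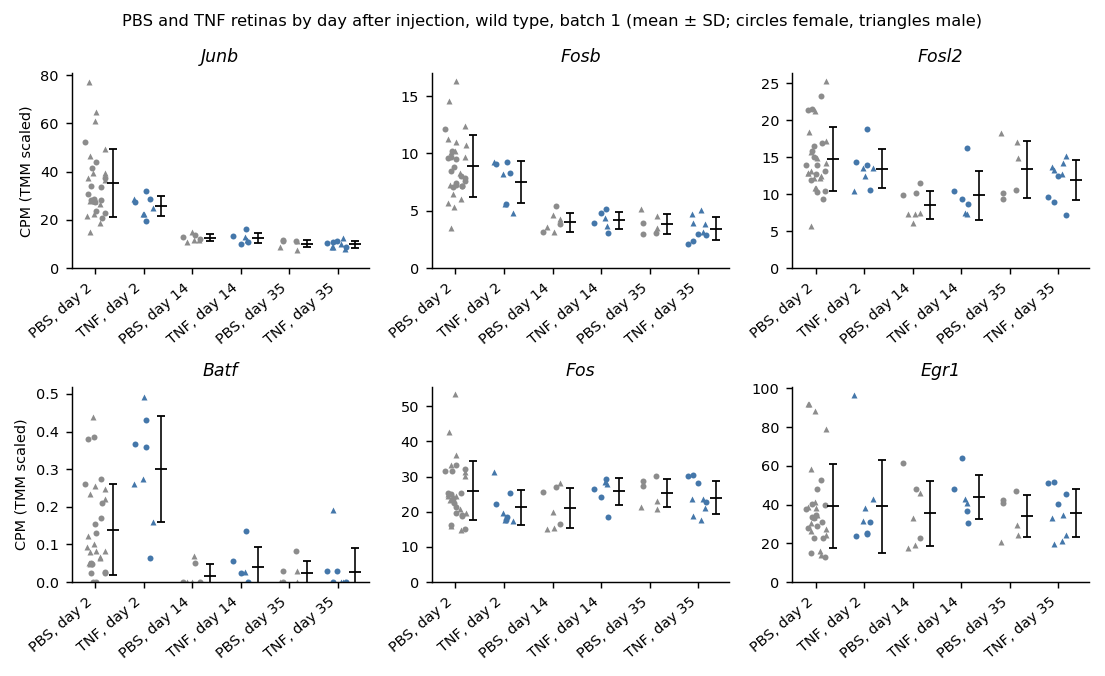
Level of 6 members in CPM (TMM scaled, linear axes from 0) in single WT retinas of batch 1 injected with PBS (grey) or TNF (blue) and collected on day 2, 14 or 35; circles are female and triangles male retinas, and bars give the mean ± SD. Junb and Fosb are low on days 14 and 35 with either injection, while Fos and Egr1 keep their range.

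Across the 31 PBS retinas of day 2, 1 from each mouse, the members varied together. All 36 pairs of the 9 members had a positive correlation of log2 CPM, with Pearson's r from 0.125 (Fosb and Batf) to 0.871 (Junb and Fos) and a median of 0.478. By permutation, 21 pairs passed a Benjamini-Hochberg adjusted p of 0.05 over the 36 with Pearson's r and 20 with Spearman's rho. For Junb and Fos, rho was 0.859 and r was 0.846 without the 2 retinas farthest from the median of Junb; the adjusted permutation p was 1.20e-04 for both, from raw values of 1e-05, the smallest that the permutations can give. Junb and Fosb had an r of 0.843 (0.791 without 2 retinas), and Fos and Egr1 an r of 0.754 (0.663 without 2 retinas). Batf had the weakest links, with r at most 0.397 (Fosl2). All genes of a retina share its library and dissection. Sex was not removed, and pairs of other genes were not correlated for comparison. The counts of pairs therefore cannot show a link particular to these members.

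**Figure D5:**
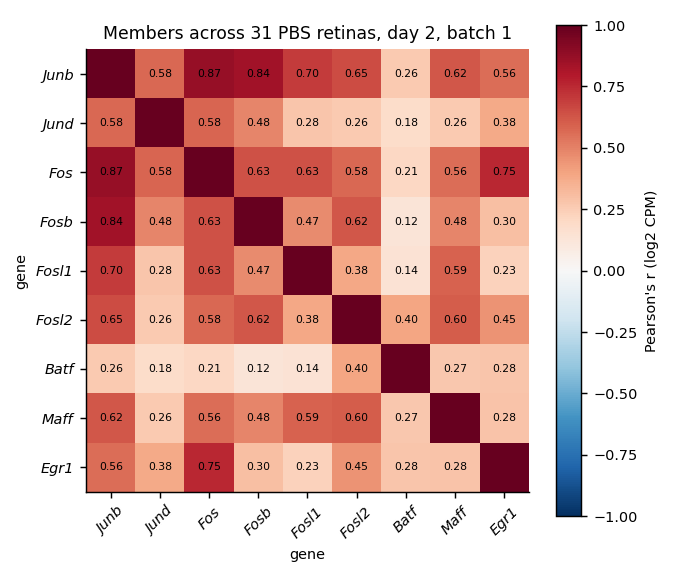
Pearson's r between each pair of the 9 tested members, computed on log2 CPM across 31 WT PBS retinas of day 2, batch 1, with red for positive and blue for negative values. Junb has its highest values with Fos (0.87) and Fosb (0.84), and the row of Batf is the palest, with none above 0.40.

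Eyes of the same mouse were compared as well, and no member passed the adjusted threshold. Over 23 mice with a PBS and a treated eye, the deviation of the PBS eye from its group mean had an r of at most 0.400 with that of the other eye (Egr1; rho = 0.375, adjusted permutation p = 0.516 for r and 0.711 for rho over 9 members; r = 0.243 without 2 mice). For Junb r was 0.023.

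Genes with the most similar pattern were sought over the 58 day 2 retinas of batch 1 after removing group and sex means, among 15131 genes. Junb was most like Tirap (r = 0.921), an adaptor of Toll-like receptors, Socs3 (0.905), a feedback inhibitor of cytokine receptors, and Flot2 (0.901). Fos was most like Junb (0.839), and Egr1 most like Fos (0.737) and Ier2 (0.681), another immediate early gene. Fosl2 was most like Osmr (0.886), a cytokine receptor subunit, Nfkb2 (0.855) and Pdpn (0.853). Fosl1 and Maff shared Tnfrsf12a as the closest gene (0.687 and 0.671), and both had Epha2 among their 3 closest. Fosb was most like Thg1l (0.897), Jund most like Hnrnpab (0.785) and Batf most like Rhog (0.723).

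Other genes of the pathway were described from lists. Of 14 other AP-1, ATF, MAF and related zipper genes tested, 9 rose and 1 fell with IL1A+TNF on day 2 (median log2 fold change 0.39), where 24.9% of all genes rose and 25.5% fell. These shares are the background of the next 4 counts too. Atf3, a stress-induced partner of JUN, rose by 1.39 ± 0.173, Batf2 by 2.33 ± 0.305, Bach1, a heme-regulated repressor, by 0.42 ± 0.0491 and Jun by 0.68 ± 0.0908, while Nrl, the zipper factor that sets rod identity, fell by 0.85 on the log2 scale. Of 25 other immediate early genes, 13 rose and 3 fell (median 0.33). Egr2 rose by 2.23 ± 0.202, Zfp36, which destabilizes cytokine mRNA, by 1.22 ± 0.119, Klf10 by 0.88 ± 0.0745 and Klf6 by 0.57 ± 0.0626.

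Upstream of these genes, 12 of 22 MAP kinase, SRF, ELK and CREB genes rose and 6 fell, with small changes (median 0.09). Rps6ka1, a kinase downstream of ERK, rose by 0.75 and the ETS factor Elk3 by 0.78, Map2k3, a kinase of the p38 branch, by 0.44, and Mapk9, which encodes JNK2, fell by 0.21. Of 14 feedback inhibitors of MAP kinases, 5 rose and 4 fell (median 0.02), not far from the background shares. The phosphatase genes Dusp2 (1.59), Dusp6 (0.59) and Dusp8 (0.33) were higher and Dusp4 (-0.64) lower. Of 16 genes known as AP-1 targets in other settings, 13 rose and 1 fell (median 1.38). Hmox1, a heme-degrading enzyme, rose by 4.05 ± 0.198, Mmp9, a matrix protease, by 2.30 ± 0.149 and Cd44 by 1.66 ± 0.158, while Vegfa fell by 0.57 on the log2 scale. In PBS retinas of day 14, 12 of 16 of these targets were lower than on day 2 and 0 were higher, where 10.5% of all genes were lower and 8.68% higher. The lists were drawn from general knowledge and not independently of earlier results, and these genes respond to other factors too.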

How the data were processed

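RNA was sequenced as poly(A) libraries from 109 whole retinas. Per the submitters' processing notes, STAR 2.7.9a, the mm10 build and featureCounts (Subread 2.0.1) were used, and the values the authors deposited are counts per gene, whole numbers with no normalization. The strand setting and annotation release are not given in the sources used here. Samples were grouped by the labels. Symbols and positions came from GENCODE M21 (GRCm38). No 2 retinas of a group agreed within counting noise (smallest chi-square per gene 4.55 over 716 pairs).

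Counts were filtered (filterByExpr, minimum count 10, total 15), scaled by TMM and fitted with limma 3.58.1 (voom, 2 rounds of duplicateCorrelation with mouse as the block) in R 4.3.3, with a term for sex and, for Sarm1-/-, batch, following the study's methods. PBS retinas of different days were fitted without a block. The eyes pair by animal, and the estimated correlation within mice was 0.0515 on day 2 of batch 1, 0.284 on day 14, 0.0794 on day 35 and 0.00526 in the fit with Sarm1-/-. Calls needed a Benjamini-Hochberg FDR under 0.05 over all genes tested. Levels are TMM CPM over all 109 retinas, with a prior count of 2 on the log2 scale for correlations and outliers. On simulated data for IL1A+TNF against PBS on day 2 (19548 genes), 86.7% of 2-fold and 98.0% of 4-fold changes were recovered. For 2-fold changes the share was 81.6%, 79.6% and 90.8% for TNF on days 2, 14 and 35, and 71.7% for WT batch 2. It was lower still for differences of effects: 71.4% between sexes, 68.4% between genotypes and 67.7% between batches. Each simulation changed only 200 genes, picked over all levels, and drew every retina independently, with no effect of the mouse. The shares are therefore not the power for these members in the real data. Alternatives were edgeR 4.0.16, DESeq2 1.42.0, other scaling and filters, other blocks, quality weights, no sex term, batches alone or joined, and leaving out mice. Members and lists were chosen with earlier results of these data known. All 10 members are described, and of each list up to 4 genes with the smallest FDR in IL1A+TNF against PBS on day 2, plus Jun. No sample of the series was labelled as deficient for Jun.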

Additional observations from a re-analysis of the deposited data

Results flagged for a closer look

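For 2 genes the effect differed between groups by an interaction term in limma. For Fosl1 the effect of IL1A+TNF was larger in Sarm1-/- than in WT retinas by 0.94 on the log2 scale (FDR = 0.0393), which rested on the 2 mice described above. For Junb the effect of TNF was larger with IL1A than without by 1.04 (FDR = 0.0499), which was lost without single mice.

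Of 110 sets of 1 member in 1 group of 4 to 10 retinas, 8 held a retina whose gap to the next was too large by Dixon's test on log2 CPM. Chance flags about 1 in 20 such groups. The high values were Egr1 at 96.5 CPM in WT TNF replicate 3 of day 2, Junb at 81.5 CPM in WT IL1A replicate 8, Fosl2 at 21.4 CPM in WT PBS replicate 1 of batch 2, Jund at 48.5 CPM in WT PBS replicate 2 of day 14 and Batf at 0.191 CPM (6 counts) in WT TNF replicate 4 of day 35. The low values were Maff at 0.731 CPM in WT PBS replicate 6 of day 14, Batf at 0.0189 CPM (1 count) in Sarm1-/- PBS replicate 6 and Batf3 at 0.0459 CPM (2 counts) in WT IL1A+TNF replicate 9 of day 2.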

How the results depend on the processing

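Fos with IL1A+TNF on day 2 had a log2 fold change of -0.057 with the mouse as a fixed block, and Egr1 with IL1A was then at -0.16, Fosb with TNF at 0.078 and Fosl2 with TNF at 0.13. Egr1 with TNF was at -0.032 in DESeq2, at -0.030 in edgeR, at -0.068 with quality weights, and at -0.13 to 0.085 with single mice left out. Fosl1 in WT retinas of batch 2 was at -0.050 to 0.17 with single mice left out. In Sarm1-/- retinas Fos was at -0.061 without the 2 mice, -0.32 with quality weights and -0.012 to 0.34 with single mice left out; with quality weights Fosl1 was at -2.34e-04 and Maff at -0.051. The cause was not tested. None of these was a called value except Fosl1 and Maff in Sarm1-/- retinas.

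Counts of called members changed by over 1.5 times as follows. With the mouse as a fixed replicate block they were 4 for IL1A+TNF on day 2 (7 in the report), 2 for WT batch 2 (4) and 0 for IL1A+TNF against IL1A, for the TNF effect with and without IL1A, and for genotype by treatment (1 each). With no replicate block the TNF effect with and without IL1A had 0. With quality weights the counts were 4 for IL1A, 1 for TNF, 2 for IL1A+TNF against IL1A, 2 for the TNF effect, 8 for WT batch 2, 1 for Sarm1-/- and 0 for Sarm1-/- against WT with IL1A+TNF and for genotype by treatment. With no filter on low counts, IL1A+TNF against IL1A, the TNF effect and genotype by treatment had 0. DESeq2 gave 7 for WT batch 2 and 2 for Sarm1-/- against WT with IL1A+TNF, where edgeR also gave 2. In batch 2 alone the counts were 5 for Sarm1-/-, 0 for Sarm1-/- against WT with IL1A+TNF and 0 for genotype by treatment, and without the 2 Sarm1-/- mice (chosen after seeing the data) all 3 were 0. With single mice left out, the counts ranged from 6 to 7 for IL1A+TNF on day 2, 2 to 4 for IL1A, 0 to 1 for TNF, 0 to 2 for IL1A+TNF against IL1A, 0 to 1 for the TNF effect, 2 to 3 for WT batch 2, 3 to 8 for Sarm1-/-, 0 to 2 for Sarm1-/- against WT with IL1A+TNF and 0 to 1 for genotype by treatment. The mice left out were those with an IL1A+TNF, IL1A or TNF eye on day 2 of batch 1, the WT mice of batch 2 and the Sarm1-/- mice; the IL1A mice, the IL1A+TNF mice of batch 1, the Sarm1-/- mice and 1 WT mouse of batch 2 were added after seeing the data. Smaller changes were 3 for IL1A with no filter, 6 for WT batch 2 in edgeR and 5 with no replicate block or no sex term, 4 for PBS retinas of day 14 against day 2 (3 in the report) in DESeq2, in edgeR, with no filter and with quality weights, and 4 for those of day 35 (3) with no filter. Batf and Batf3 have too few counts for small changes to be detectable.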
